A study of Mus musculus with 14 samples.

Results

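The 8 genes described here serve the red cell lineage. They were taken by name from 21631 protein-coding genes of the RefSeq table for GRCm38.p6 (mm10), with no cut-off on a measured value. Earlier results of these data were known when the genes were chosen. The 8 genes are the regulators Klf1, Nfe2 and Bcl11a, the iron and haem genes Tfrc and Alas2, and the membrane genes Ank1, Slc4a1 and Rhag. Their surroundings were read in Hoxb8-FL cells, an untreated mouse line of multipotent blood progenitors with the cell type label LMPP-like, grown with estradiol and FLT3. Lines of this kind are held in a progenitor state by a Hoxb8 protein that depends on estradiol. The maps are ChIP-seq peak lists of 13 transcription factors with 1 library each, so there is no replicate check and no p-value, and the rabbit IgG control, also 1 library, was not analysed here. Cells were fixed for 10 min with formaldehyde at 0.4% or 1%, and the labels do not assign a strength to each factor. The files hold no RNA, so the cell type label could not be checked against marker genes, and whether the 8 genes were expressed was not measured.

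Red cell precursors arise from multipotent progenitors through a switch to a programme driven by the zinc finger factor Gata1, which takes over sites held earlier by its relative Gata2. Gata factors act in a complex with the basic helix-loop-helix proteins Tal1 or Lyl1 and the bridging protein Lmo2, which binds no DNA itself. Spi1 (PU.1), an ETS factor, and the C/EBP factors Cebpa and Cebpb direct the myeloid fate, and Spi1 is known to oppose Gata1. Gfi1b, a repressor, is needed for red cells and platelets, and its relative Gfi1 acts more in neutrophils and lymphocytes. Runx1 and the ETS factors Erg and Fli1 serve stem and progenitor cells, as does the homeobox factor Meis1.

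A peak was assigned by its midpoint. Near peaks lay between the gene boundaries or no more than 10 kb outside them, and outer peaks lay 10 to 50 kb away. All peaks are 400 bp wide and carry no score or read count, so depth is unknown, and a gene without a peak is a gene without a listed peak. The lists ran from 3217 peaks for Gata2 to 76378 for Spi1, so a long list reaches more genes. For that reason each count is set beside the share of all protein-coding genes with a peak of the same factor in the same zone. Counts were also made from the first 50% of lines in each list, an arbitrary smaller set because the order of lines is not explained. Upstream and downstream are used for Klf1, Bcl11a, Tfrc, Alas2 and Rhag, whose RefSeq start sites all lie on the plus strand. For Ank1, Slc4a1 and Nfe2, below and above mean lower and higher coordinates. Whether a region inside a gene was exonic or intronic was not analysed here.

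The 300-base windows around the start sites, 250 bases before to 50 after, are shown first for Tfrc, the only one of the 5 genes with a RefSeq promoter entry whose window met a peak, and then for Alas2, Klf1 and Rhag as windows without one. Capitals mark matches on either strand to AGATAA or TGATAA (the letters Gata factors favour), AGGAAG (ETS), TGTGGT (Runx) and TTGCNNAA (C/EBP). Tfrc has entries for 2 start sites, chr16:32608646-32608945 and chr16:32608872-32609171, which overlap. The other windows are chrX:150547167-150547466 for Alas2, chr8:84901732-84902031 for Klf1 and chr17:40810899-40811198 for Rhag, all 5′ to 3′ on the plus strand of GRCm38.p6.
Tfrc, lower start: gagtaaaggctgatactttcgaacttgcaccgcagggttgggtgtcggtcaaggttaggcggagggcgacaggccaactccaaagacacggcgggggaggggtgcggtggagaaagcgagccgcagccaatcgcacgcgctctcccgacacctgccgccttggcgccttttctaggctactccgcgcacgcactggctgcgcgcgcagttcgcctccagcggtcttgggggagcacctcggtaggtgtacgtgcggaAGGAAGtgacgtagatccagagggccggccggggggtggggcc
Tfrc, higher start: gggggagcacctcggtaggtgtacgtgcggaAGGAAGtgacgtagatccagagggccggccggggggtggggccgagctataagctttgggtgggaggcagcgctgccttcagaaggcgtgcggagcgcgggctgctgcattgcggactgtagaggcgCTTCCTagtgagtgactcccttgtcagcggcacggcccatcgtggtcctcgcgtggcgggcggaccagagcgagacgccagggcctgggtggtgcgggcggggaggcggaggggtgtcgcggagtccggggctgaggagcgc
Alas2: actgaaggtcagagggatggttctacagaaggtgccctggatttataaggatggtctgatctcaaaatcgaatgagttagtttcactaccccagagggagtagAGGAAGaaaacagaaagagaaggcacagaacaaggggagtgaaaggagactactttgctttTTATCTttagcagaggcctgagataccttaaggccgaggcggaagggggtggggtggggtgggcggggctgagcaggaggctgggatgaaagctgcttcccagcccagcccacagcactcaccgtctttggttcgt
Klf1: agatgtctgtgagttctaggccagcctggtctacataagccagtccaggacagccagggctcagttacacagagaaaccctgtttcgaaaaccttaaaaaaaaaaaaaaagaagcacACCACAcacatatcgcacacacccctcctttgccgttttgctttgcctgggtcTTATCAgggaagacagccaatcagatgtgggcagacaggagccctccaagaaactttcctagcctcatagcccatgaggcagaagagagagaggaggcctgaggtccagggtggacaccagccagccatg
Rhag: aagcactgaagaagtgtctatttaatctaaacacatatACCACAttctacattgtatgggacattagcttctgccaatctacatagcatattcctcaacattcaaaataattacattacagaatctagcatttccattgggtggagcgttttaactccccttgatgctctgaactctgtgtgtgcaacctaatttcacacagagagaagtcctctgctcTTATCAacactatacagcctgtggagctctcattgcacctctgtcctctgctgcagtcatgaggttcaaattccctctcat

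Peaks of Lmo2, Erg, Fli1, Spi1, Cebpb and Runx1 overlapped both Tfrc windows. The lower Tfrc window held 1 AGGAAG at position +8, counting the start base as +1. The higher window held the same AGGAAG and a CTTCCT, and 35.4% of all 32851 promoter entries hold at least 1 such match. No capital in the Tfrc windows is a Gata, Runx or C/EBP match. The Alas2, Klf1 and Rhag windows each held 1 Gata match, as TTATCT 86 bases before the Alas2 start, TTATCA 80 before that of Klf1 and TTATCA 31 before that of Rhag, and 18.6% of all entries hold one. None of these 3 windows met a peak. The nearest peak lay 40493 bp from the Alas2 window, 935 bp from the Klf1 window and 3818 bp from the Rhag window. Klf1 and Rhag also each held 1 Runx match (16.8% of entries), Alas2 held 1 AGGAAG, and none of the windows held the C/EBP letters (10.8%). The Bcl11a window at chr11:24080445-24080744 held none of these 4 kinds of match and lay 536 bp from a Cebpb peak. That window lies wholly inside the gene boundaries used for the zones. The Rhag start site and its TTATCA also lie inside the boundaries of that gene. A match is a description of letters and does not show a site in use.

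Among the regulators, peaks were denser near than in the outer zone at Nfe2 and Klf1, and sparser near at Bcl11a. Nfe2, the p45 subunit of the NF-E2 factor of red cells and megakaryocytes, had peaks of 12 factors near and of 12 factors in the outer zone, and all 13 between them. Bcl11a, a repressor of embryonic and fetal globin genes that is also needed for B cells, had 3 near and all 13 in the outer zone. Klf1, the zinc finger activator of adult globin and many other red cell genes, had 6 near and 5 outer. Of all protein-coding genes, 7.07% had 12 or more factors near and 1.97% had 13 in the outer zone.

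Nfe2 (gene ID 18022, chr15:103248212-103258403) carried 37 near peaks, or 12.3 per 10 kb, the highest density of the 8. The factor it lacked near was Meis1, which had 3 outer peaks there, and the factor it lacked in the outer zone was Gata2. Its most shared region, chr15:103258181-103258787, had its midpoint 0.081 kb above the upper gene boundary and held 12 factors, all but Meis1. Peaks of 5 factors, Gata2, Lmo2, Spi1, Cebpb and Runx1, lay in a region of 867 bp at chr15:103255247-103256113 inside the gene, and 7 factors shared chr15:103252713-103253145, also inside it. Gata2 was thus found both at the Nfe2 boundary and inside the gene. Above the gene, an 8-factor region at chr15:103268874-103269352 lay 10.7 kb away and 3.77 kb from Copz1, and a 7-factor region at chr15:103305090-103305651 lay 47.0 kb away and 2.86 kb from Gpr84.

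Bcl11a (14025, chr11:24076564-24173558) had few factors close by. Its near zone of 117 kb held 5 peaks, or 0.427 per 10 kb, each alone in its region. They were 3 Spi1 peaks and 1 Cebpb peak in the gene body, and 1 Meis1 peak 5.78 kb downstream of it. With an inner limit of 20 kb Bcl11a had 9 factors near, and with the first 50% of lines it had 1. Beyond that, 9 factors shared chr11:24184910-24185425, 11.6 kb downstream, and 11 shared chr11:24200220-24200762, 26.9 kb downstream. Both regions held Tal1, Lyl1, Lmo2, Fli1, Spi1, Cebpb, Runx1 and Meis1. The first added Gfi1, and the second added Erg, Cebpa and Gfi1b. A Gata2 peak stood alone 21.6 kb upstream of the gene. No other protein-coding gene lay within the 50 kb limits, and all 12 regions had Bcl11a as their nearest gene.

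Klf1 (16596, chr8:84901982-84905291) lies among 6 other genes within its limits. A 4-factor region at chr8:84902966-84903472, inside the gene and 1.24 kb downstream of its start, held Lmo2, Spi1, Cebpb and Runx1, with no Tal1 or Lyl1. A Gata2 peak stood alone 3.54 kb upstream of the gene, and a region with Spi1, Cebpa and Cebpb lay 8.03 kb upstream beside Gcdh. Klf1 had no Tal1, Lyl1, Gfi1b or Meis1 peak in either zone. Of its 12 regions 8 lay inside another gene and 5 held Spi1 alone, and in the outer zone the most shared region, chr8:84856773-84857177, had 3 factors, Erg, Fli1 and Spi1, 45.0 kb upstream inside Farsa.

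**Figure D1:**
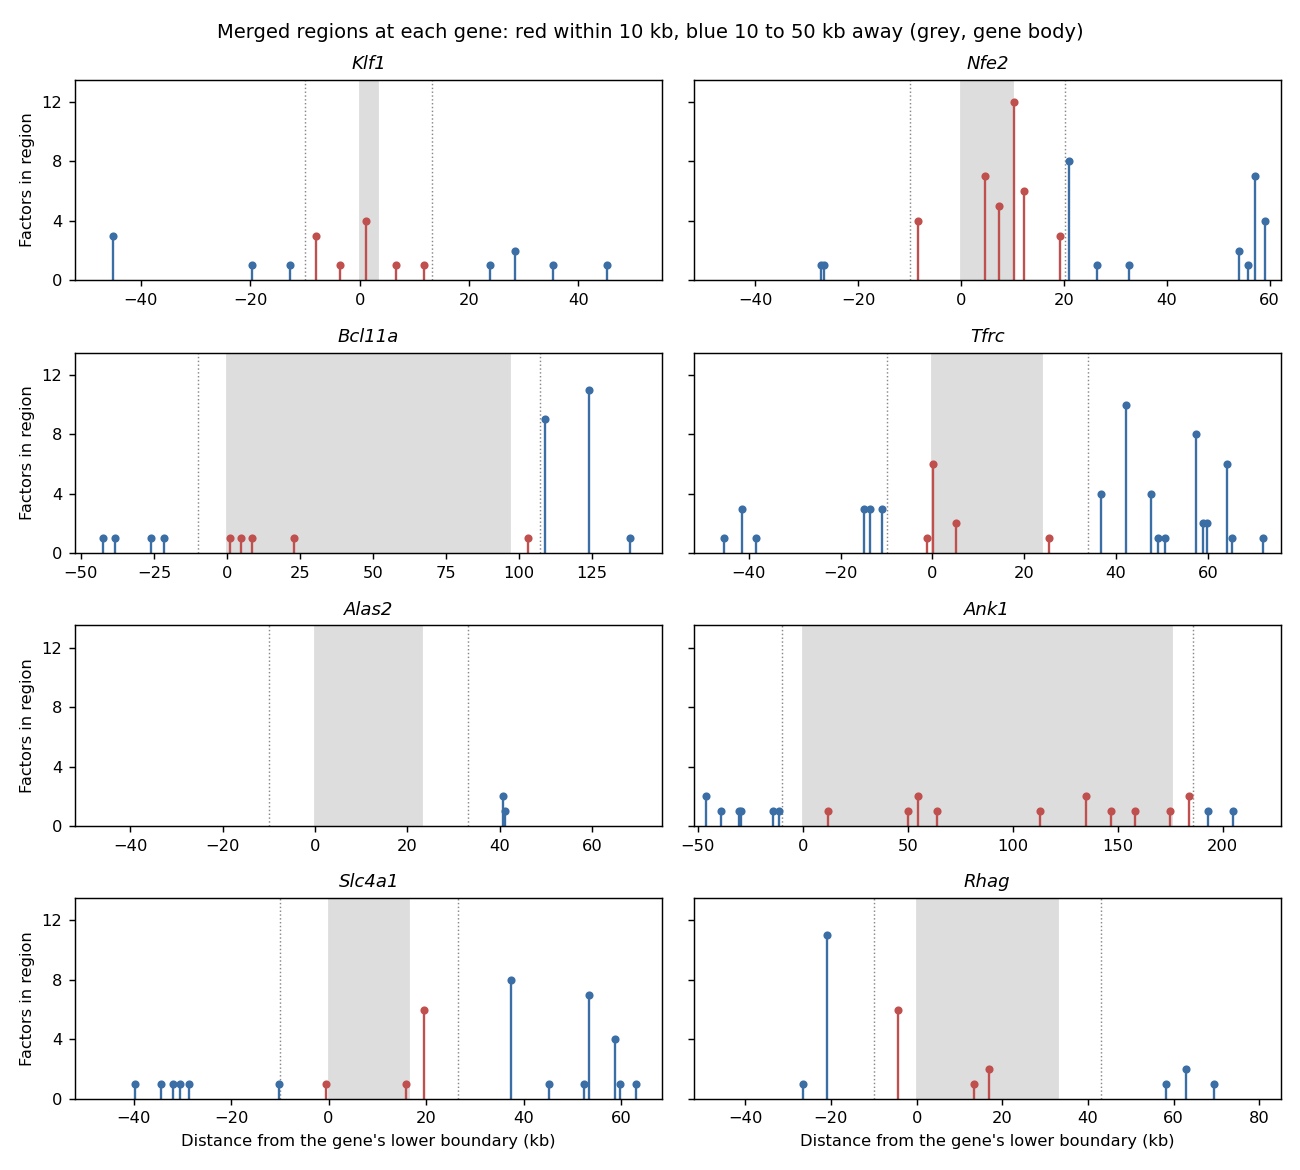
Number of factors (vertical axis, of 13) in each merged region against the distance of its midpoint from the gene's lower boundary in kb (horizontal axis), with the gene body in grey, dotted lines at 10 kb, near regions in red and outer regions in blue. Nfe2 has its tallest region, with 12 factors, at the gene boundary, Bcl11a has 9 and 11 factors 11.6 and 26.9 kb beyond its end, and Alas2 has no near region.

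Of the iron and haem genes, Tfrc had peaks in both zones and Alas2 only in the outer one. Tfrc, the transferrin receptor that brings iron into cells, had 7 factors near and 12 in the outer zone, with 54 outer peaks, the most of the 8 genes. Alas2, the erythroid enzyme for the rate-limiting step of haem synthesis, had no near peak of any factor and 3 outer peaks. No near peak at all was also the case for 19.9% of all protein-coding genes. Over all those genes, 36.3% had as many near factors as Tfrc or more, and 10.7% as many outer ones. As many outer factors as Alas2 or fewer were found at 34.4%.

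At Tfrc (22042, chr16:32608896-32632794) a 6-factor region, chr16:32608643-32609337, covered the gene start and held the factors given for the promoter windows above. The midpoints of Spi1 and Lmo2 lay 7 and 4 bp before the gene start and those of Erg and Fli1 lay 3 and 6 bp after it. The AGGAAG printed in the lower window begins at position +8 from that start. The Cebpb midpoint lay 54 bp before the start and the Runx1 midpoint 241 bp after it. No Tal1, Lyl1 or Gata2 peak was near Tfrc. With the first 50% of lines Tfrc had 4 factors near and no near region of more than 2, and with an inner limit of 20 kb it had 11 factors near.

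Upstream of Tfrc, at 14.8 kb, Tal1, Lyl1 and Lmo2 shared a region with no other factor, and at 10.9 kb Tal1 and Lmo2 shared one with Gfi1. Downstream, a region with 10 factors, all but Gata2, Gfi1b and Meis1, lay at chr16:32650753-32651475, 18.3 kb away, and one with 8 factors lay at chr16:32665877-32666685, 33.5 kb away. Both lay inside Tnk2, the neighbouring kinase gene, as did 11 of the 21 regions at Tfrc. Which gene any of these regions acts on was not tested.

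At Alas2 (11656, chrX:150547417-150570622) the 3 outer peaks made 2 regions 17.5 and 18.0 kb downstream. Fli1 and Spi1 shared the first, chrX:150587959-150588363, inside both Apex2 and Pfkfb1, and Cebpb had the second, inside Pfkfb1. Alas2 was the only one of the 8 genes without a Cebpa peak in either zone, and none of its 3 peaks was in the first 50% of lines.

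Of the membrane genes, Slc4a1 and Rhag had shared regions outside their bodies and Ank1 had none with more than 2 factors. Slc4a1, the band 3 anion exchanger, and Rhag, a channel protein of the Rh complex, each had 7 factors near and 11 in the outer zone. Ank1, the ankyrin that ties band 3 to spectrin, had 4 in each zone. Its 13 near peaks were spread over a gene of 176 kb, at 0.664 per 10 kb. Of all protein-coding genes, 36.3% had 7 or more factors near and 18.4% had 11 or more in the outer zone. At the lower end, 48.4% had 4 or fewer near and 40.0% had 4 or fewer in the outer zone.

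At Slc4a1 (20533, chr11:102348820-102365281) a region 3.18 kb above the gene, chr11:102368132-102368787, held Tal1, Lyl1, Lmo2, Gfi1, Gfi1b and Runx1 with no ETS or C/EBP factor. The gene body held 1 peak, of Spi1. With the first 50% of lines Slc4a1 had 3 factors near and no near region of more than 2. An 8-factor region at chr11:102386061-102386549, 21.0 kb above, held Tal1, Lyl1, Lmo2, Fli1, Spi1, Cebpa, Cebpb and Meis1, and a 7-factor region at chr11:102402073-102402564 lay 37.0 kb above, inside Rundc3a. Below the gene, all 7 regions, near and outer, held Spi1 alone. Slc4a1 had no Gata2 or Erg peak in either zone.

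At Rhag (19743, chr17:40811099-40844094) the regions with more than 2 factors lay upstream. Tal1, Lyl1, Lmo2, Fli1, Cebpa and Cebpb shared chr17:40806387-40807081, 4.37 kb upstream. An 11-factor region, chr17:40789845-40790313, lay 21.0 kb upstream inside Crisp2, and lacked only Gata2 and Gfi1. Regions in the Rhag body held Spi1 alone, or Cebpa with Cebpb, and Cebpa and Meis1 shared chr17:40873706-40874177, 29.8 kb downstream. With the first 50% of lines Rhag had 4 factors near.

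Ank1 (11733, chr8:22974836-23150501) had none of Gata2, Tal1, Lyl1, Lmo2, Erg, Fli1 or Runx1 in either zone. Near peaks came from Spi1 with 8, Meis1 with 3, Cebpa with 1 and Cebpb with 1. With the first 50% of lines it had 1 factor near. Spi1 alone filled 12 of its 18 regions, and the shared near ones were Cebpa with Cebpb at chr8:23029358-23029775 and Spi1 with Meis1 at 2 places. In the outer zone Gfi1 and Gfi1b shared chr8:22928607-22929045, 46.0 kb below, inside Kat6a.

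**Figure D2:**
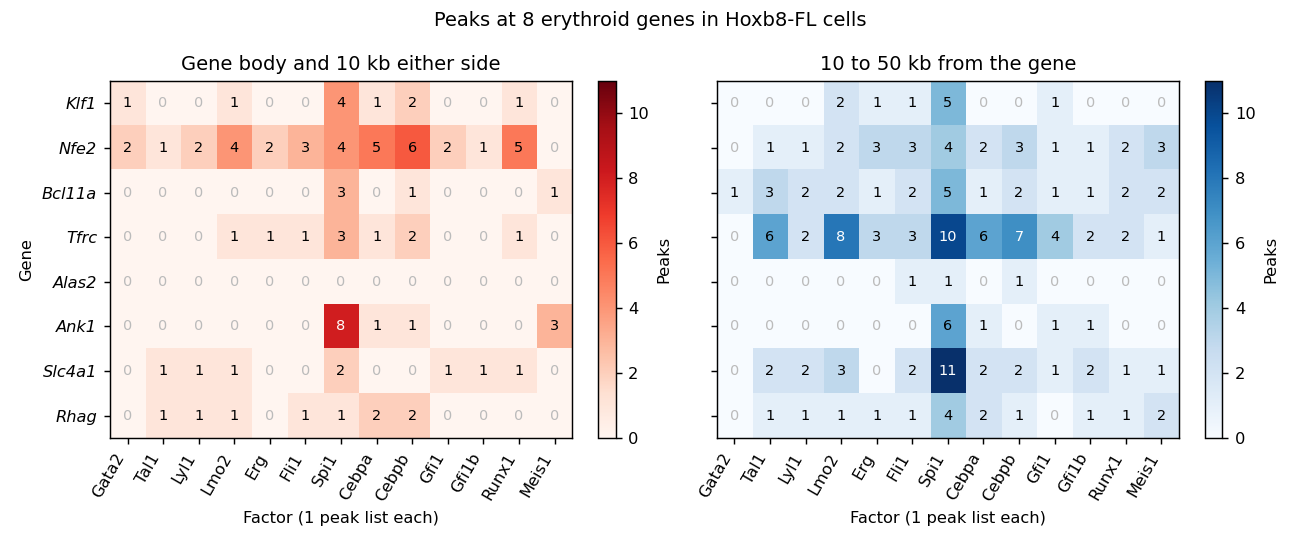
Number of peaks of each factor (columns) at each gene (rows), within the gene body and 10 kb (left, red) and 10 to 50 kb away (right, blue), with the count printed in each cell. The Alas2 row is 0 throughout on the left, Ank1 has 8 Spi1 peaks near, and Tfrc and Slc4a1 have the highest outer Spi1 counts, 10 and 11.

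The Gata and helix-loop-helix group was absent from Alas2 and Ank1 and present at the other 6 genes. Gata2 was near 2 genes, Klf1 and Nfe2, against 10.6% of all genes, and in the outer zone of Bcl11a only, against 14.7%. Tal1 was near 3 genes (Nfe2, Slc4a1 and Rhag, background 32.2%) and in the outer zone of 5 (43.8%). Lyl1 marked the same 3 genes near (21%) and the same 5 outer, Nfe2, Bcl11a, Tfrc, Slc4a1 and Rhag (29.3%). Lmo2 was near 5 genes (49.5%) and in the outer zone of 6 (57.3%). Beyond the genes of Tal1 these were Klf1 and Tfrc near, and Klf1 in the outer zone.

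Among the ETS factors Spi1 reached more of the genes than Fli1 or Erg, as it did over all genes. Spi1 was near 7 genes, all but Alas2 (background 73.9%), and in the outer zone of all 8 (79.4%). Fli1 was near 3 genes, Nfe2, Tfrc and Rhag (51.4%), and Erg near 2, Nfe2 and Tfrc (30.8%). In the outer zone Fli1 reached 7 genes (56.9%) and Erg 5 (36.6%). The near share of Fli1 and Erg lay below that of all genes and the outer share above it, each by a margin of few genes.

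C/EBP factors, the Gfi pair, Runx1 and Meis1 completed the set. Cebpa was near 5 genes (55.2%) and outer at 6 (63.6%), and Cebpb near 6 (57.4%) and outer at 6 (65.3%). Gfi1 and Gfi1b were both near Nfe2 and Slc4a1 and no other of the genes (27.2% and 25.3% of all genes). In the outer zone each was found at 6 genes, against 34.8% for Gfi1 and 32.8% for Gfi1b. Runx1 was near 4 genes (36.8%) and outer at 5 (41.9%). Meis1 was near Bcl11a and Ank1 (26.9%) and outer at 5 genes (36%).

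**Figure D3:**
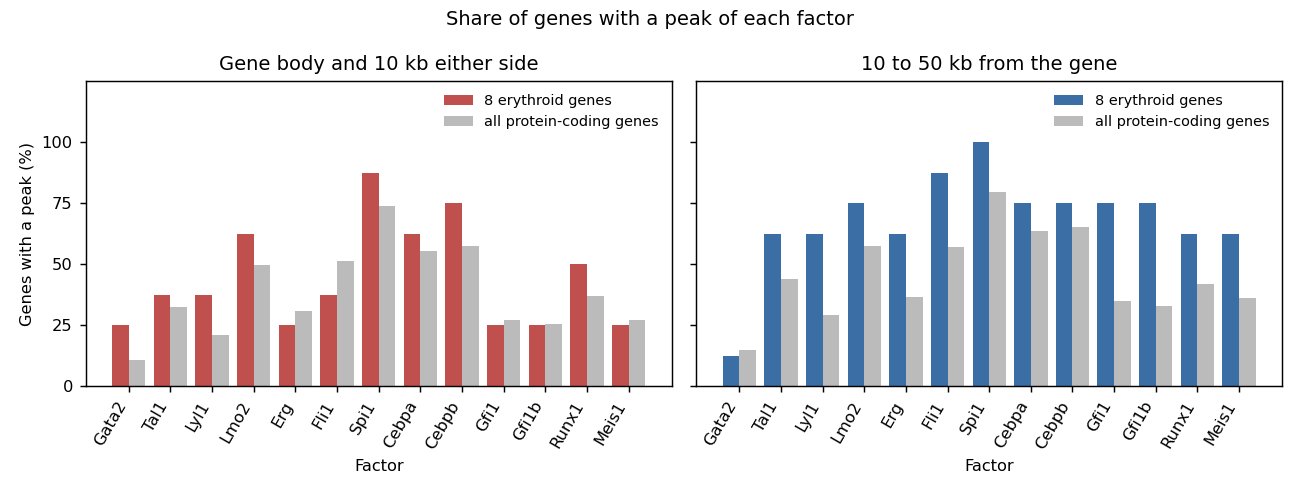
Percent of genes with at least 1 peak of each factor, for the 8 erythroid genes (coloured bars) and for all 21631 protein-coding genes (grey bars), near (left) and in the outer zone (right). The coloured bars on the right stand above the grey ones for every factor except Gata2, while on the left Erg, Fli1, Gfi1, Gfi1b and Meis1 are below grey.

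Over all 104 pairs of gene and factor, 46 (44.2%) had a near peak and 71 (68.3%) an outer one. The same shares over all protein-coding genes were 38.3% near and 45.6% outer. The median of the 8 genes was 6.5 factors near, against 5 for all genes, and 11 in the outer zone, against 6. More factors outer than near were found at 5 of the 8 genes and at 49.6% of all genes. Klf1 and Nfe2 ran the other way in density, with 4.29 and 12.3 near peaks per 10 kb against 1.25 and 3.25 in the outer zone. With the first 50% of lines 28 pairs were near (26.9%, against 24.7% over all genes). Most outer pairs came from regions closer to another gene. With each peak given only to its nearest protein-coding gene, 22 of the 104 pairs were outer, of which Bcl11a had 13, Tfrc 7, Ank1 1 and Slc4a1 1, while near pairs numbered 45. Under that rule 8.6% of pairs over all genes were outer and 31.5% near.

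**Figure D4:**
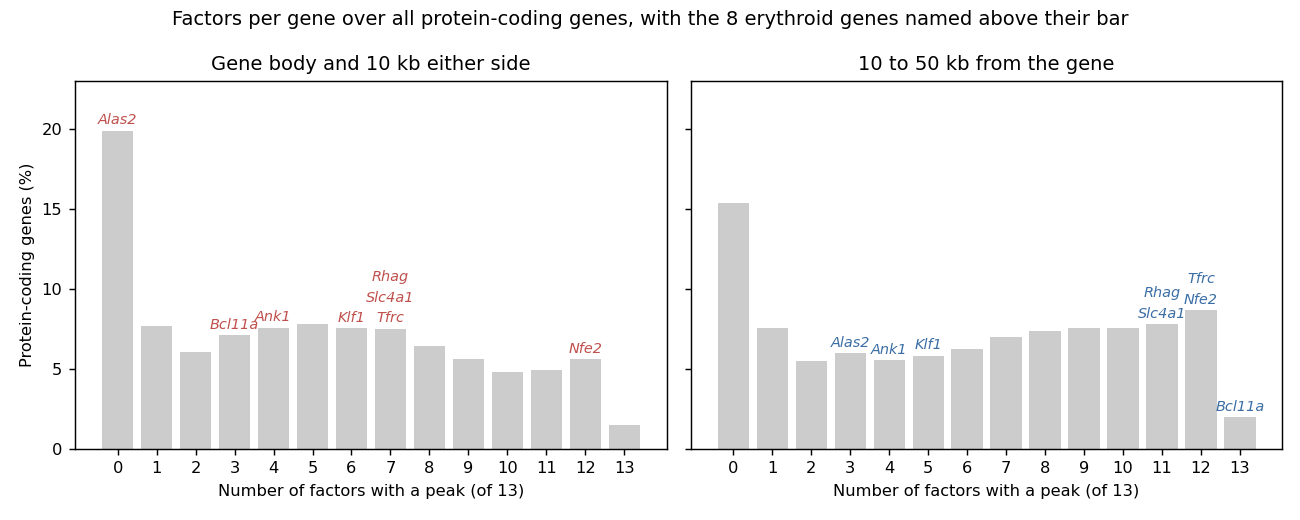
Percent of all protein-coding genes (vertical axis) with each number of factors from 0 to 13 (horizontal axis), near (left) and in the outer zone (right), with each erythroid gene named above its bar. Nfe2 stands at 12 on the left, and on the right 5 of the 8 genes stand at 11, 12 or 13.

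Merging touching or overlapping peaks gave 104 regions at the 8 genes, 36 near and 68 outer. A single factor filled 62 of them, and in 44 that factor was Spi1. Those 44 were 62.0% of the Spi1 regions at the 8 genes, against 58.5% genome-wide. Regions with 8 or more factors numbered 8, 1 near and 7 outer. A near region of this kind was found at Nfe2 only, against 15.9% of all genes, and an outer one at 5 of the 8 genes, against 22.2%. Those 5 were Nfe2, Bcl11a, Tfrc, Slc4a1 and Rhag, and of the 7 outer regions only the 2 at Bcl11a had the erythroid gene as their nearest gene. The 7 outer regions became 2 with the first 50% of lines, those of 11 factors at Bcl11a and Rhag, and 4 without the Spi1 list. Of all 104 regions, 43 lay inside another gene. The erythroid gene was nearest for 30 of the 36 near regions and 16 of the 68 outer ones.

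All 8 of the regions with 8 or more factors held Tal1, Lmo2, Fli1 and Spi1, and Gata2 was in 1 of them, at the Nfe2 boundary. Over the genome most such regions held the same 4 factors and few held Gata2. Of 6191 regions with 8 or more factors 92.9% held Tal1, 98.8% Lmo2, 96.8% Fli1, 90.1% Spi1 and 4.91% Gata2. Peak midpoints in the 8 regions, which are taken from fixed-width peaks and may not mark the exact site of binding, fell in different layouts. At the Nfe2 boundary Gata2, Tal1, Lyl1 and Lmo2 lay within 3 bp of each other, while Cebpa and Cebpb lay within 8 bp of each other and, on average, 100 bp to the other side of the region's centre. In the 11-factor region upstream of Rhag all midpoints fell within 69 bp. In the 8-factor region 33.5 kb from Tfrc they spread over 409 bp, with Tal1, Lmo2, Cebpa and Cebpb to the lower side and Erg, Fli1, Spi1 and Runx1 to the higher side, and whether that region is 1 site or several was not tested.

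**Figure D5:**
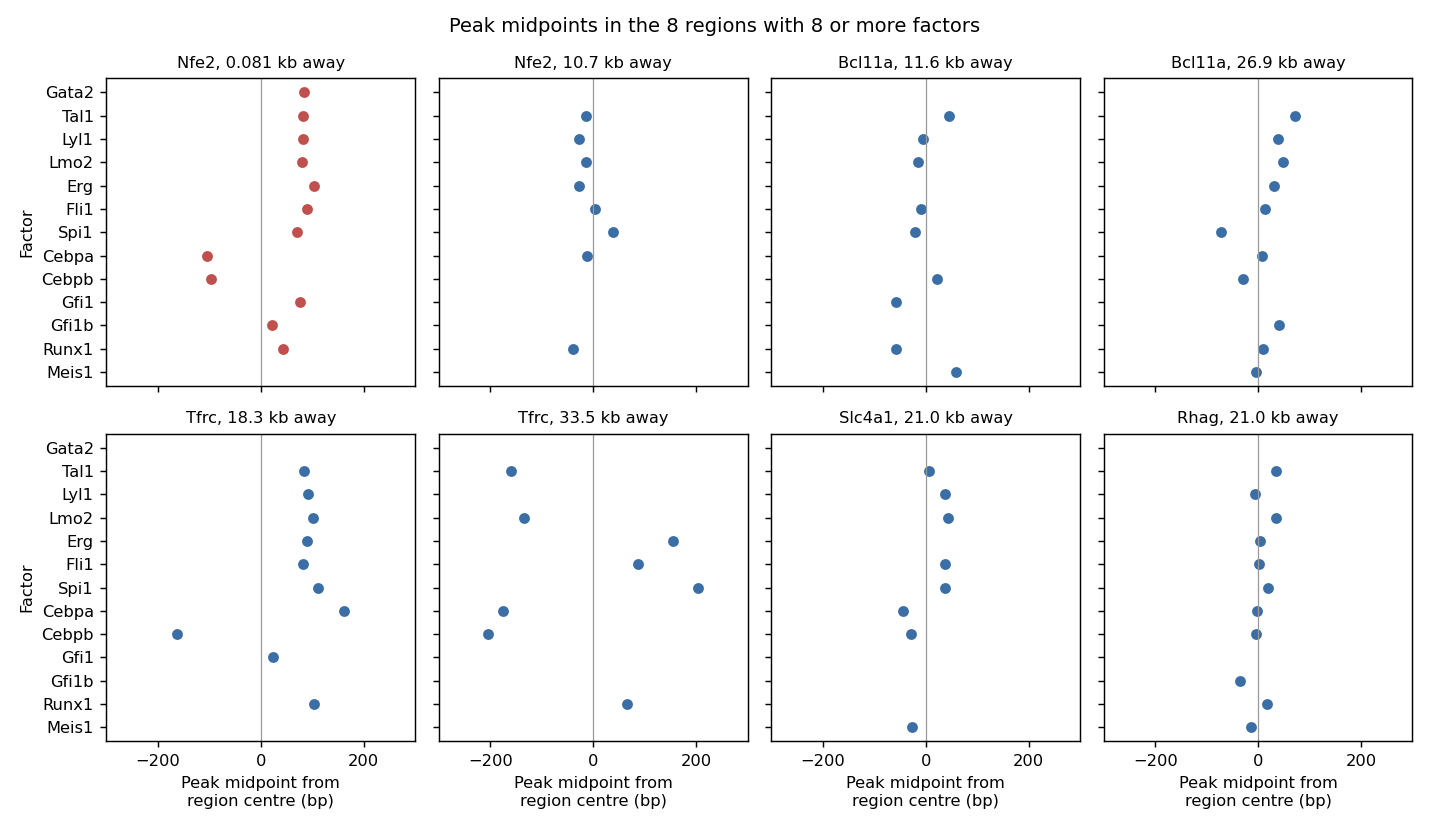
Offset of each factor's peak midpoint from the region centre in bp (horizontal axis) for the 13 factors (vertical axis) in the 8 regions with 8 or more factors, 1 panel per region, red for the near one and blue for the outer ones. In the Nfe2 panel at 0.081 kb the C/EBP points stand on the other side of the centre from the other 10, and in the Tfrc panel at 33.5 kb the points form 2 groups.

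Factors that share regions over the genome also shared them at the 8 genes. Intervals are exact binomial at 95% and cover counting error only, and regions of one gene are not independent. Tal1 shared 15 of its 16 regions with Lmo2 (93.8%, 69.8 to 99.8), against 76.4% of its regions genome-wide. Runx1 also shared 15 of 16 with Lmo2 (93.8%, 69.8 to 99.8), against 76.5%. All 12 Lyl1 regions held Lmo2 (lower bound 73.5%, genome-wide 97.0%) and all 12 Erg regions held Fli1 (lower bound 73.5%, genome-wide 95.8%). Cebpa shared 18 of 24 with Cebpb (75.0%, 53.3 to 90.2), against 82.5%. Of 4 Gata2 regions, 2 held no other factor (genome-wide 70.5%), and of 13 Meis1 regions 3 held none (41.5%). For some other pairs the interval lay above the genome-wide share. Runx1 was in 57.7% of Lmo2 regions (36.9 to 76.6), against 33.5%. It was in 41.7% of Cebpa regions (22.1 to 63.4), against 19.2%, and in 40.0% of Cebpb regions (22.7 to 59.4), against 19.1%. Erg was in 66.7% of Fli1 regions (41.0 to 86.7), against 39.2%. These pairs were picked after their values were seen, and no allowance was made for the number of pairs.

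By the presence of 13 factors in 2 zones, which makes 26 states per gene, Nfe2 and Tfrc matched in 21 and so did Tfrc and Rhag, while Nfe2 and Alas2 matched in 5. Elsewhere in the genome 10 genes had the Nfe2 pattern in all 26 states, Bola2, Coro1a and Kif17 being nearest in number of peaks. The Tfrc pattern was matched in full by 25 genes, led by Hdgfl2, Pak2 and Yars, the Alas2 pattern by 6, led by Anks4b, Becn2 and Ces4a, and the Rhag pattern by Mfsd4a alone. Next to Rhag were Gm52523 and Zfp286 at 25 states. Patterns of the remaining genes had no full match. For Bcl11a the closest were 9 genes at 25 states, led by Prdx6b, Ror1 and Stc1. For Ank1 they were 4930550C14Rik at 25 and Htatip2 and Nr3c2 at 24, for Slc4a1 Angpt4 at 24 and Tnfrsf13c and Tspyl4 at 23, and for Klf1 Ift172, Rflnb and Glt8d1 at 23.

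Other red cell genes were read the same way from 5 lists of regulators, haem synthesis, iron, membrane and globin genes, in which 52 of 53 symbols matched. Over these 52 genes 54.4% of pairs of gene and factor had a near peak and 61.1% an outer one, with a median of 8 factors in each zone. Regulators had the highest near share, 64.6%, and globin genes the lowest, 27.5%, with 5 neighbouring pairs of globin genes that share peaks. Erg and Gata2 had no peak in either zone at the 7 globin genes, which are not separate loci, and over all genes 51.7% had an Erg peak and 23.2% a Gata2 peak in either zone.

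Over all protein-coding genes the median was 9 factors in a locus, which is both zones together. Among regulators Myb and Zbtb7a had all 13 factors in their loci and Zfpm1, the Gata1 cofactor Fog1, had 12, with 83 near peaks. Trim58 had the fewest, 3. Gata1 itself, named after its value was seen, had 5, with Fli1, Spi1 and Cebpb near and Spi1, Gfi1 and Gfi1b in the outer zone. Of the haem genes Ppox had 13 factors and Abcb10 12, and Urod had the fewest, 6. Among iron genes Fth1 and Tfr2 had 12 and Hmox1 11, and Ireb2 had 7. Among membrane genes Cd47, Sptb and Epb41 had 12, whereas Kel, a blood group antigen, had a lone Meis1 peak in the outer zone. Of the globin genes Hba-a2, Hba-x and Hba-a1 had 10 factors and Hbb-y had 8. Alas2 thus had fewer factors in its locus than any listed haem or iron gene, and Kel fewer than Alas2.

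Set beside equally long lists of other lineages, the 8 erythroid genes had the lowest near share of the 3. That share was 44.2%, against 38.3% over all genes. The 52 other red cell genes above had 54.4%, and the regulators among them 64.6%. Platelet genes (Itga2b, Gp1ba, Gp1bb, Gp9, Pf4, Ppbp, Selp and Vwf) had a near peak in 72.1% of pairs and an outer peak in 70.2%. Neutrophil granule genes (Mpo, Elane, Prtn3, Ctsg, Ltf, Camp, Lcn2 and Ngp) had 63.5% near and 78.8% outer. Near regions with 8 or more factors were found at 4 platelet genes and 4 neutrophil genes, against 1 erythroid gene and 15.9% of all genes. Of the 52 other red cell genes 13 had one, and so did 7 of the 15 regulators among them. By factor, and picked after their values were seen, Tal1 was near 3 erythroid, 7 platelet and 5 neutrophil genes (32.2% of all genes), Gata2 near 2, 0 and 1 (10.6%), and Cebpb near 6, 5 and 7 (57.4%). Of the 52 other red cell genes 31 had Tal1 near, 8 had Gata2 and 43 had Cebpb. The near share of the erythroid genes was also the lowest of the 3 with inner limits of 5 and 20 kb, with the first 50% of lines (26.9%, against 56.7% and 55.8%) and without Spi1. The order of the outer shares changed, and with the first 50% of lines it was 54.8% for erythroid, 55.8% for platelet and 52.9% for neutrophil genes. Outer regions with 8 or more factors were found at 5 erythroid, 5 platelet and 3 neutrophil genes, and at 22.2% of all genes. They were also found at 20 of the 52 other red cell genes and at 7 of the 15 regulators. The platelet and neutrophil lists each hold 1 pair of neighbours that share peaks. With 8 genes a list and 1 library a factor, the differences between lists were not tested.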

How the data were processed

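Per the labels, ChIP-seq libraries of Hoxb8-FL cells were made for 13 factors and rabbit IgG with the Illumina TruSeq kit. The submitters' processing notes name Bowtie2, MACS2 and bedtools and the builds mm10 and GRCm38, without version, role or calling threshold. The deposited lists give the start and end of each peak, with no score or count (279955 peaks on 19 autosomes and X, after 3 mitochondrial lines were left out). Python 3.11.15, numpy 2.4.6 and scipy 1.17.1 were used. Midpoints were assigned to zones of 10 and 50 kb, and peaks overlapping by 1 bp or touching were merged. Only the shares of one factor's regions that held another factor have exact 95% intervals. Counting and merging were tested on simulated peaks. Named were all 8 genes, their most shared region per zone and those of 8 or more factors, the 3 genes with most and the 1 with fewest factors per further list, and the 3 most alike genes per gene. One gene that this rule names is not reported here. Further regions were picked after their values were seen. Genes and lists were chosen with earlier results of these data known. Promoter sequences are from RefSeq (GRCm38.p6), with entries for 5 of the 8 genes. Alternatives changed the limits, the peaks used, the merging and the assignment.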

Additional observations from a re-analysis of the deposited data

How the results depend on the processing

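With 1 library per factor, no replicate could be left out, and no paired analysis was possible because no factor has a second library. Counts and densities stayed within 1.5 times in 54 of 60 alternatives for totals and 137 of 160 for single genes, of which those on other red cell genes and other lineages were chosen after seeing the data. Some of these outcomes were fixed in advance, so the tallies do not measure how robust the counts are. Leaving out the Spi1 list removes at most 1 factor per gene and zone, which cannot move a total of pairs by 1.5 times. An absence under both settings was counted as unchanged. Using the first 50% of lines per list, whose order is not explained in the sources used here, near pairs of gene and factor fell from 46 to 28 and the median density from 1.95 to 0.867 peaks per 10 kb near and from 2.56 to 1.69 in the outer zone. Outer regions with 8 or more factors fell from 7 to 2 with those lines, namely the 11-factor regions at Bcl11a and Rhag, and to 4 without the Spi1 list. Giving peaks to the nearest gene only left 22 of 71 outer pairs. The boundary region of Nfe2 kept 11 of 12 factors with the first 50% of lines and lost Gata2. Unknown depth limits what an absent peak means, and the cause of these shifts was not tested.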
